A study of Mus musculus with 6 samples.

Results

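The genes described here are those that neural progenitor cell (NPC) array NP39 read higher than the other NPC arrays, NP106 and NP107, read them. They were selected on measured values. A gene was taken when its NP39 value exceeded the mean of NP106 and NP107 by more than 1.5 on the log2 scale and the latter arrays lay less than 1 apart. This rule took 158 of 17144 genes, and 49 of the 158 could be named. The amount by which NP39 exceeded that mean is called the NP39 excess below. It ranged from 1.503 to 6.55 among the 158 genes, with a median of 1.99. Because NP39 is 1 array, the excess has no replicate and was given no test.

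Gene expression was measured in embryonic stem cells (ESCs) and NPCs on Affymetrix GeneChip mouse arrays, with 3 arrays for each cell type. ES1, ES2 and ES3 were wild-type V6.5 ESCs, a mouse line of the 129SvJae/C57B6 F1 background, grown with serum and LIF, the cytokine that holds mouse ESCs in the pluripotent state. NP106, NP107 and NP39, labelled as NPC replicates 1, 2 and 3, were wild-type NPCs obtained by in vitro differentiation of V6.5 ESCs and kept in N3 medium with bFGF, EGF and laminin. The labels call the 3 arrays of each cell type biological replicates. All 6 arrays share 1 cell line, and the labels do not say whether the replicates were separate cultures or derivations, so p-values measure the spread between these arrays. Values are log2 expression from robust multi-array averaging (RMA), and NP106 and NP107 together are called the first NPC arrays.

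NPCs in bFGF and EGF divide under growth factor signaling that runs through the ERK kinases to immediate early genes such as those of the EGR family. Cells short of amino acids or under other stress phosphorylate the translation factor eIF2, which slows protein synthesis and brings up the transcription factors ATF4 and CHOP. Those factors switch on amino acid transporters and enzymes, a program called the integrated stress response. A neighboring program, the unfolded protein response of the endoplasmic reticulum (ER), adds chaperones. NPCs also keep a regional identity, written in patterning transcription factors and HOX genes, and can turn to neurons or glia.

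*Pou5f1*, which encodes OCT4, read 12.42 to 12.46 in ESCs and 3.61 to 3.83 in NPCs, with NP39 at 3.61. All 5 named markers of neural progenitors, *Fabp7*, *Nes*, *Vim*, *Sox3* and *Notch1*, were above every ESC array on NP39, and their NP39 excess ran from -0.18 to 0.72. Since 11 such markers were listed and names came mostly from genes higher in NPCs, the order of these 5 against ESCs is no check of the label. NP39 stood apart from its replicates over all genes: across genes its Pearson correlation was 0.978 with NP106 and 0.979 with NP107, against 0.997 between NP106 and NP107. The same rule applied to each of the other 5 arrays against its own replicates found 0 genes, high or low. For NP106 and NP107 this was nearly fixed beforehand. Their replicates include NP39, so the limit on the gap left out genes that NP39 set apart. Without that limit, the largest excess was 3.80 for NP106 and 4.01 for NP107. Turned round, the rule found 110 genes that were lower on NP39. The 3′ minus 5′ value of *Gapdh*, a sign of RNA integrity, was -0.14 on NP39 and -0.16 to -0.05 over all arrays, and that of beta-actin was 0.26 on NP39, the lowest of a range reaching 0.45.

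Promoter sequences are shown for 3 named genes before their values. These are *Nap1l5*, which had the largest excess with a name, and *Areg* and *Egr2*, growth factor response genes whose promoters matched a searched motif. The sequences come from RefSeq on build GRCm38.p6 and span 250 bases before to 50 bases after the annotated start, read 5′ to 3′ on the gene's strand. *Nap1l5* is at chr6:58907077-58907376 on the minus strand, and capitals mark its 17 CpG dinucleotides. *Areg* is at chr5:91139349-91139648 on the plus strand, and capitals mark a cAMP response element 61 bases before the start. *Egr2* is at chr10:67537619-67537918 on the plus strand, and capitals mark a CArG box, the site of serum response factor, 72 bases before the start.
Nap1l5: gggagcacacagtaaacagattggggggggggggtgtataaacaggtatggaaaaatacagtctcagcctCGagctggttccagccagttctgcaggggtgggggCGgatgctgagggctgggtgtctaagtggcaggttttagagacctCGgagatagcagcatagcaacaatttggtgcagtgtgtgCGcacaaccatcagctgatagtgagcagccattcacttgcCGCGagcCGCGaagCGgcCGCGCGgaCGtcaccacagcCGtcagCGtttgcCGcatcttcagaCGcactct
Areg: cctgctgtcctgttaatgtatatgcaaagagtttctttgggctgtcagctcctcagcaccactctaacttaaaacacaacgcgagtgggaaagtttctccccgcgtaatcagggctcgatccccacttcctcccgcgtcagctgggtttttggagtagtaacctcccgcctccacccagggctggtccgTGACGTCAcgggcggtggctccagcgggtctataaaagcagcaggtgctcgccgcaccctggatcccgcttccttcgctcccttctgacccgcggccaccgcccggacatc
Egr2: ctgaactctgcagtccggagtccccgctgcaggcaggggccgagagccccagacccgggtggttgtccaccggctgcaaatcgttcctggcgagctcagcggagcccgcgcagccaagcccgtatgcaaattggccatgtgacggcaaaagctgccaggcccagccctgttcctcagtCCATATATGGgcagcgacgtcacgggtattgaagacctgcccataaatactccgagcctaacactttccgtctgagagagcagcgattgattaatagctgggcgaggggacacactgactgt

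RefSeq held a promoter for 36 of the 49 named genes. The cAMP response element TGACGTCA, searched on both strands as were all motifs, was found for 2 of the 36, *Areg* and *Hhip* (5.56%). It was found for 2.03% of 27025 genes with a promoter and 2.46% of the 1585 named array genes with a promoter. The CArG box was also found for 2, *Egr2* and *Pou3f4*, against 1.81% of all genes and 1.89% of the 1585. The EGR site GCGNGGGCG was found for 5, namely *Bex2*, *Fam46a*, *Grm3*, *Hhip* and *Wnt7a* (13.9%), against 6.27% of all genes and 16.9% of the 1585 named array genes with a promoter. The antioxidant response element TGACNNNGC was found for 1, *Egr2*, against 14.0% of all genes and 15.4% of the 1585. The amino acid response element TGATGNAAT was found for 0 of the 36, against 1.08% of all genes and 0.57% of the 1585. No motif searched contains another. A match is a match of letters only. The median number of CpG dinucleotides was 17 for the 36 genes, 23 for the 1585 and 8 for all 27025.

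*Nap1l5* encodes a protein related to nucleosome assembly factors and is an imprinted gene, expressed from the paternal copy and lying within *Herc3*. Its values were 3.30, 3.34 and 3.45 on ES1, ES2 and ES3, 3.03 on NP106, 3.18 on NP107 and 8.85 on NP39. NP39 alone stood high, and NP106 and NP107 were both below every ESC array. The excess was 5.75. RMA values as low as those of NP106 and NP107 may be background, so no fold is given. The other 4 imprinted genes that could be named, *Peg10*, *Sgce*, *Nnat* and *Peg3*, had excesses of 0.57, -0.14, -0.29 and -0.54. Of 26 imprinted genes listed, only those 5 had a name here.

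**Figure D1:**
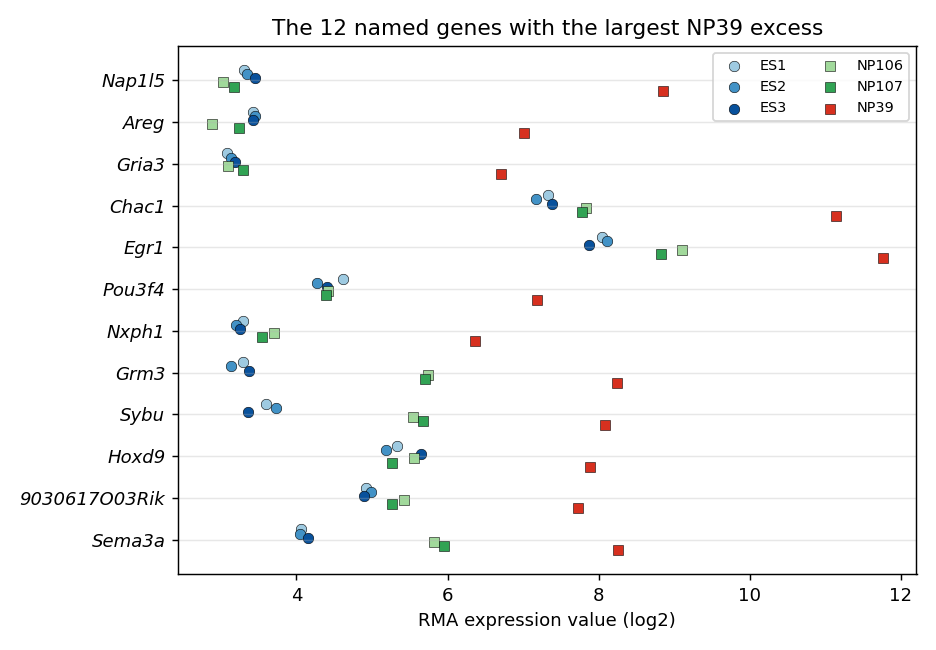
RMA expression (log2, horizontal axis) of the 12 named genes with the largest NP39 excess, from *Nap1l5* (5.75) at the top to *Sema3a* (2.37). Each point is 1 array, circles for ESCs and squares for NPCs, and the red NP39 square lies to the right of every other array in each row.

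Genes of the integrated stress response were higher on NP39 than on NP106 and NP107 in all 19 of the listed genes that had a name (49 were listed), with excesses from 0.33 to 3.34 and a median of 1.21. Over all 2004 named genes the median excess was -0.09, 879 were above 0 and 132 were above 1. These values serve as the comparison for each list below as well. The lists were written with earlier results of these data known, and several hold genes selected on the excess itself. Such comparisons therefore describe the lists and test nothing. The 4 genes of this list that passed the selection were *Chac1*, *Ddit3*, *Slc7a11* and *Slc7a5*, and 12 of the 19 exceeded 1. Nearly all names came from genes higher in NPCs, so list members that were not higher in NPCs could not be seen.

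*Chac1*, a glutathione-degrading enzyme and target of ATF4 and CHOP, read 7.33, 7.17 and 7.38 on ES1, ES2 and ES3, 7.83 on NP106, 7.78 on NP107 and 11.14 on NP39. Its excess was 3.34, and NP106 and NP107 lay only slightly above the ESC arrays. *Ddit3*, which encodes CHOP, read 7.25, 7.29 and 7.30 in the ESCs, 8.14 and 8.12 on the first NPC arrays and 9.86 on NP39. *Slc7a11*, the cystine importer, read 3.00, 3.05 and 3.07 in the ESCs, 4.06 and 4.09 on the first NPC arrays and 5.85 on NP39. For both, the 3 levels were separate, with ESCs lowest and NP39 highest. *Slc7a5*, the large neutral amino acid transporter, read 9.08, 8.87 and 9.12 in the ESCs, 9.75 and 9.63 on the first NPC arrays and 11.36 on NP39. The excesses of *Ddit3*, *Slc7a11* and *Slc7a5* were 1.73, 1.78 and 1.67.

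Outside the selection, 8 further genes of the list exceeded 1, and the 6 largest were *Aldh18a1* (1.33), *Vldlr* (1.31), *Gpt2* (1.31), *Atf5* (1.29), *Pck2* (1.27) and *Mthfd2* (1.21). These encode enzymes of proline, alanine, phosphoenolpyruvate and one-carbon metabolism, a lipoprotein receptor and an ATF4-related transcription factor. The mean of the 19 genes was 7.73, 7.67 and 7.77 on the ESC arrays, 8.88 on NP106, 8.95 on NP107 and 10.2 on NP39. In the fit of all 3 NPC against all 3 ESC arrays, 17 of the 19 were called higher, and so were 1949 of all 2004 named genes, since names came mostly from genes higher in NPCs. The order of ESCs and NPCs in these means is therefore no property of the list.

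Genes of the ER chaperone list, which also holds genes of ER-associated degradation, did not share this direction. Of the 6 with a name (20 were listed), none passed the selection, and 5 were lower on NP39 than on either other NPC array. Their median excess was -1.23, and *Sdf2l1*, *Manf*, *Dnajc3* and *Syvn1*, named after their values were seen, had -2.28, -1.54, -1.31 and -1.14. The list mean was 7.89 to 7.97 in ESCs, 9.43 on NP106, 9.41 on NP107 and 8.26 on NP39. *Herpud1*, like *Syvn1* a component of ER-associated degradation, was the exception with an excess of 0.30.

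**Figure D2:**
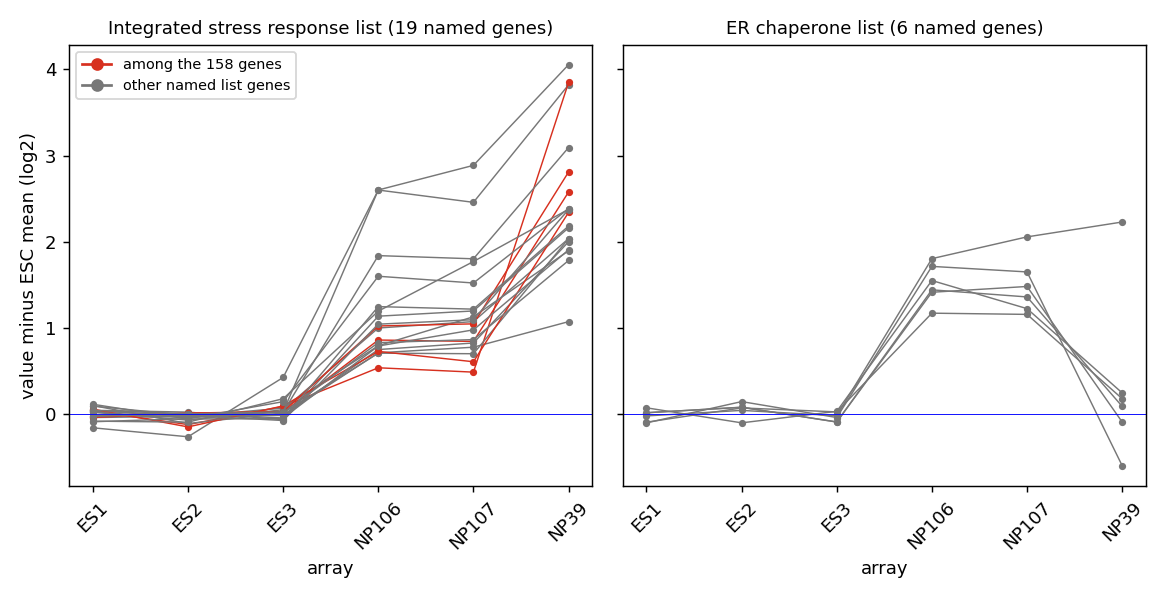
Value minus the gene's ESC mean (log2, vertical axis) on each of the 6 arrays (horizontal axis). The 19 named integrated stress response genes are on the left and the 6 named genes of the ER chaperone list on the right. Each line joins the values of 1 gene. Red marks the 4 genes among the 158, and NP39 is the highest NPC array for all 19 genes on the left and for 1 of 6 on the right.

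The oxidative stress list had 2 named genes of 15, *Slc7a11* and *Ephx1*, and both were among the 158. *Ephx1*, the microsomal epoxide hydrolase, read 7.57, 7.63 and 7.65 in the ESCs, 9.27 and 9.24 on the first NPC arrays and 11.59 on NP39. Its excess was 2.33, and ESCs, the first NPC arrays and NP39 did not overlap.

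Growth factor response genes included a ligand, 2 transcription factors and an adaptor. *Areg* encodes amphiregulin, a ligand of the EGF receptor. It read 3.43, 3.45 and 3.43 on ES1, ES2 and ES3, 2.88 on NP106, 3.23 on NP107 and 7.01 on NP39. The excess was 3.96, and NP106 and NP107 lay below every ESC array, at values that may be background. *Egr1*, a zinc finger immediate early gene, read 8.04, 8.11 and 7.87 in the ESCs, 9.10 and 8.82 on the first NPC arrays and 11.76 on NP39. *Egr2*, its relative, read 2.90, 3.24 and 3.06 in the ESCs, 4.79 and 4.49 on the first NPC arrays and 6.89 on NP39. For both EGR genes the ESC arrays were lowest and NP39 highest, with excesses of 2.80 and 2.24. *Shc4*, an adaptor of receptor tyrosine kinases, had an excess of 1.63.

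Across the list of immediate early genes and ERK feedback regulators, 16 of 44 had a name and their median excess was 0.35. Of the 16, 5 exceeded 1, against 132 of all 2004 named genes. They were *Areg*, *Egr1*, *Egr2*, *Nab2* (1.47), a corepressor that binds EGR proteins, and *Dusp6* (1.13), the phosphatase of ERK. NP39 was the highest NPC array for 11 of the 16 and the lowest for 3.

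Among patterning factors, *Pou3f4*, which encodes the class III POU factor BRN4, read 4.61, 4.27 and 4.40 on ES1, ES2 and ES3, 4.42 on NP106, 4.39 on NP107 and 7.18 on NP39. Only NP39 stood above the ESC range, and the excess was 2.77. The related POU factors *Pou3f3* (BRN1) and *Pou3f2* (BRN2) had excesses of 0.71 and -0.46. *Pou3f2* read 7.48 on NP106, 7.13 on NP107 and 6.85 on NP39, against 5.79 to 6.03 in ESCs. NP39 was thus the highest NPC array for *Pou3f4* and *Pou3f3* and the lowest for *Pou3f2*.

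*Npas3*, a bHLH-PAS factor of the developing brain, read 3.67, 3.67 and 3.49 in the ESCs, 6.87 and 7.07 on the first NPC arrays and 8.53 on NP39. It was high in all NPC arrays and highest on NP39, with an excess of 1.56. Further listed factors above 1 were *Rorb* (1.48), *Rfx4* (1.399), *Sox9* (1.27), *En1* (1.22) and *Meis1* (1.02). In all, 8 of the 22 named patterning genes exceeded 1, 2 were below -1, and the median was 0.56.

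*Hoxd9* read 5.33, 5.19 and 5.65 on ES1, ES2 and ES3, 5.55 on NP106, 5.27 on NP107 and 7.88 on NP39. NP106 and NP107 lay within the ESC range, and NP39 exceeded them by 2.47. Its direct neighbor *Hoxd8* had an excess of 1.16 and read 6.53, 6.74 and 7.80 on NP106, NP107 and NP39. The other 2 named HOX genes went the other way: *Hoxa3* had -0.33 and *Hoxc4*, named after its values were seen, had -3.58. *Hoxc4* read 7.29 and 7.41 on NP106 and NP107 but 3.77 on NP39, below its ESC values of 3.94 to 4.39.

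Secreted signals and their inhibitors contributed 4 genes. *Wnt7a*, a WNT ligand, read 4.33, 4.31 and 4.69 in the ESCs, 5.28 and 5.50 on the first NPC arrays and 7.48 on NP39. *Hhip*, which binds and sequesters hedgehog ligands, read 3.81, 3.67 and 3.91 in the ESCs, 4.86 and 5.14 on the first NPC arrays and 6.75 on NP39. For both, ESCs were lowest, the first NPC arrays intermediate and NP39 highest, without overlap, and their excesses were 2.09 and 1.75. Also listed were *Fzd9*, a WNT receptor (1.13), and *Wnt5a* (1.04), and the median over 11 named WNT and hedgehog genes was 0.31. *Vwc2*, a secreted BMP antagonist, had an excess of 2.34 and *Apln*, which encodes the peptide apelin, 1.68.

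Of the genes of the synapse and of excitability, *Gria3*, *Nxph1*, *Grm3* and *Sybu* were among the named genes with the largest excesses. *Kcnc1* had the smallest excess of all the selected genes. *Gria3*, an AMPA-type glutamate receptor subunit, read 3.08, 3.14 and 3.18 on ES1, ES2 and ES3, 3.09 on NP106, 3.29 on NP107 and 6.71 on NP39. Its excess was 3.52 over similarly low values, and NP106 lay within the ESC range. *Nxph1*, which encodes the neurexin ligand neurexophilin, read 3.29, 3.20 and 3.25 in the ESCs, 3.71 and 3.54 on the first NPC arrays and 6.37 on NP39. *Grm3*, a metabotropic glutamate receptor also found on astrocytes, read 3.29, 3.13 and 3.37 in the ESCs, 5.73 and 5.71 on the first NPC arrays and 8.24 on NP39. Both were above the ESC range on every NPC array, narrowly so for *Nxph1* on NP106 and NP107. *Sybu*, which links syntaxin cargo to kinesin, read 3.60, 3.73 and 3.36 in the ESCs, 5.54 and 5.67 on the first NPC arrays and 8.09 on NP39. *Kcnc1*, a voltage-gated potassium channel, read 4.17, 3.99 and 4.45 in the ESCs, 6.69 and 6.80 on the first NPC arrays and 8.25 on NP39. The excesses of *Nxph1*, *Grm3*, *Sybu* and *Kcnc1* were 2.74, 2.52, 2.48 and 1.503.

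In this list 12 of 19 named genes exceeded 1, with *Scg3* (1.44), *Glrb* (1.28), *Nrgn* (1.25), *Kcnip3* (1.24), *Gabrg1* (1.20) and *Gphn* (1.04) the 6 largest outside the selection, and the median was 1.20. NP39 was nevertheless the lowest NPC array for 3, among them the vesicle calcium sensor *Syt1* at -2.08. The neuron markers that could be named did not share the direction either: *Syt1* and *Dcx* had -2.08 and -1.20, and *Mtap2*, the only other, had 0.60.

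Axon growth and adhesion genes were *Sema3a*, *Chl1*, *Gap43* and *Rtn1*. *Sema3a*, a secreted repellent of axons, read 4.06, 4.05 and 4.15 on ES1, ES2 and ES3, 5.83 on NP106, 5.95 on NP107 and 8.26 on NP39. *Chl1*, an adhesion molecule of the L1 family, read 3.05, 3.18 and 3.07 in the ESCs, 3.98 and 3.89 on the first NPC arrays and 6.22 on NP39. *Gap43*, a growth cone protein, read 4.23, 4.34 and 4.71 in the ESCs, 8.32 and 8.55 on the first NPC arrays and 10.11 on NP39. *Rtn1*, a reticulon of the ER membrane in neural cells, read 6.73, 6.65 and 6.91 in the ESCs, 9.55 and 9.27 on the first NPC arrays and 11.09 on NP39. In all 4, ESCs, the first NPC arrays and NP39 were separate and in that order, and the excesses were 2.37, 2.28, 1.67 and 1.68. The median over 22 named genes of axon guidance and adhesion was 0.22. Of these, 6 were above 1, against 132 of all 2004 named genes, and most of that list was not higher on NP39 by this much.

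Marker lists of glia and neurons moved in part with these genes. Of 14 astrocyte and radial glia markers listed, 9 had a name. All 9 had an excess above 0, from 0.01 to 1.54 with a median of 1.01, and 5 exceeded 1. They were *Cspg5* (1.54), the only marker of this list among the 158, *Tnc* (1.33), *Acsbg1* (1.29), *Slc1a3* (1.10) and *Timp4* (1.01). *Cspg5*, a brain chondroitin sulfate proteoglycan, read 4.93, 4.49 and 4.86 in the ESCs, 7.02 and 6.99 on the first NPC arrays and 8.54 on NP39. The list mean was 4.83 to 4.89 in ESCs, 9.07 on NP106, 9.09 on NP107 and 9.99 on NP39. For the neuron list (3 named of 12) it was 6.94, 7.12 and 6.14 on NP106, NP107 and NP39. For the oligodendrocyte list (4 named of 12) it was 10.2, 10.2 and 9.60. Among the 4 named oligodendrocyte genes, *Nkx2-2*, named after its values were seen, had an excess of -2.62, and *Olig1*, *Olig2* and *Cnp* had -0.22, 0.65 and -0.15.

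Endothelial and mesenchymal markers were few. *Emcn*, which encodes the endothelial sialomucin endomucin, read 3.11, 3.14 and 2.96 in the ESCs, 2.82 and 3.46 on the first NPC arrays and 5.46 on NP39. Only NP39 and NP107 exceeded the ESC range, and NP106 was below it. *Cd93*, the other named of 12 listed endothelial genes, had an excess of 1.22 and read 5.44 on NP39. *Ddr2*, a collagen receptor tyrosine kinase of mesenchyme, read 3.91, 3.75 and 4.34 in the ESCs, 6.89 and 6.78 on the first NPC arrays and 8.34 on NP39. It had an excess of 1.51, *Foxc1* had 1.20 and *Twist1* 0.65, and they were the 3 named of 15 listed. None of 8 listed microglial genes had a name. In bulk RNA a different number of cells of a type and a different amount of RNA per cell cannot be told apart, and the part of cell composition in the excesses above was not tested.

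**Figure D3:**
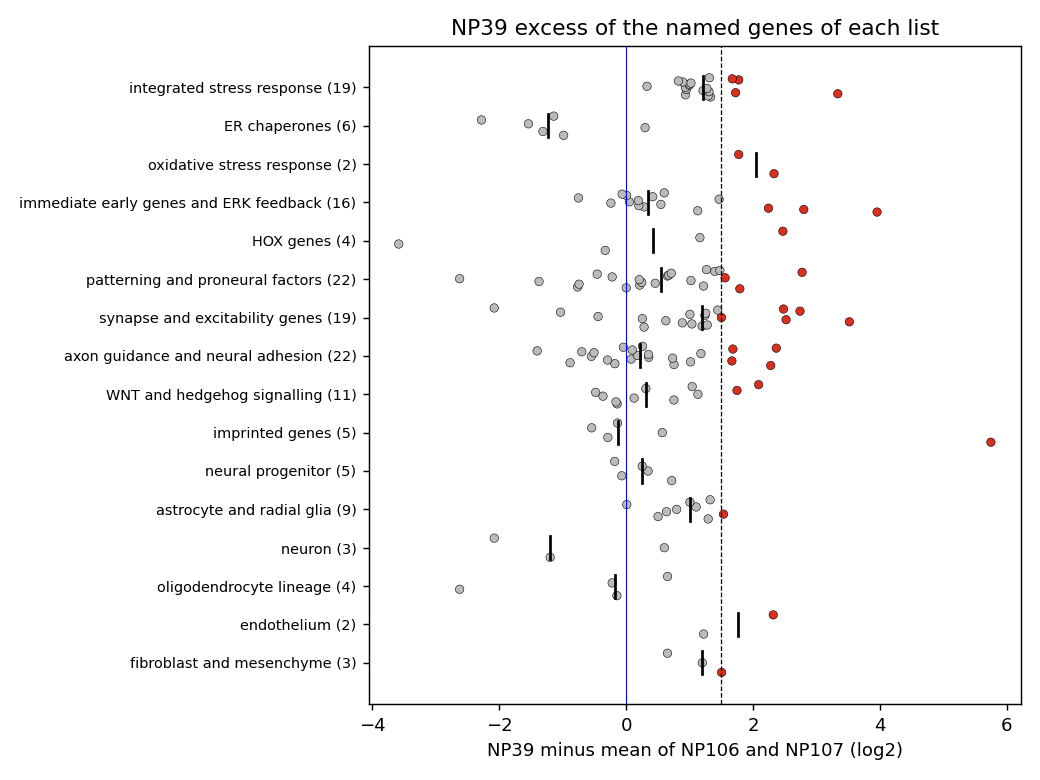
NP39 minus the mean of NP106 and NP107 (log2, horizontal axis) for the named genes of each list, with the number of named genes in parentheses; each point is 1 gene, red where it is among the 158, black bars are list medians, and the dashed line is the selection limit of 1.5. All integrated stress response genes lie to the right of 0 (median 1.21), and genes of the ER chaperone list lie to the left (median -1.23) except *Herpud1*.

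The other named genes had excesses from 1.52 to 2.38. *9030617O03Rik*, listed in RefSeq as *Dglucy*, read 4.92, 4.99 and 4.90 in the ESCs, 5.42 and 5.27 on the first NPC arrays and 7.73 on NP39. Among enzymes, the excesses were 2.16 for *Smpdl3a*, an acid sphingomyelinase-like phosphodiesterase, 1.96 for *Plcd4*, a phospholipase C, 1.55 for *Car3*, a carbonic anhydrase, 1.52 for *Ppap2b*, a lipid phosphate phosphatase, and 1.52 for *Dgkk*, a diacylglycerol kinase. *Fam46a* had 2.06. Cell surface and matrix genes included *Chst2* (1.86), a sulfotransferase, and *Plat* (1.71), which encodes tissue plasminogen activator and read 9.50, 9.31 and 11.12 on NP106, NP107 and NP39 against 4.63 to 4.97 in ESCs. *Ap3m2* (1.94), a subunit of an adaptor complex of vesicle traffic, lies next to *Plat* in the RefSeq gene order. *Myo6* (1.53) encodes a myosin motor, and *Sfxn4* (1.52) a mitochondrial protein. The remaining 7 genes, *Bex2*, *Arxes1*, *Lonrf2*, *Zfp365*, *Fam101a*, *Nckap5* and *2810459M11Rik*, lay between 1.54 and 2.01.

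The X chromosome held 6 of the 49 named genes (12.2%), *Gria3*, *Pou3f4*, *Bex2*, *Arxes1*, *Apln* and *Dgkk*, against 104 of the 1985 named genes with a RefSeq position (5.24%). *Bex2* and *Arxes1* are direct neighbors there. *Arxes2*, next to *Arxes1* and a close copy of it, had an excess of 1.37, and their probes may share signal, so the pair cannot be counted as separate genes with certainty.

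Set beside the ESC arrays, the 158 genes fell into separate patterns. NP39 was above every ESC array for 95 genes, below every ESC array for 57, and within the ESC range for 6. Over all genes these orders were seen for 35.0% (above) and 44.4% (below). NP106 and NP107 were both above every ESC array for 45 of the 158 (31.9% of all genes) and both below for 101 (37.6% of all genes). Since the selection used the NPC arrays, these counts describe the genes and test nothing. A description as genes high in NP39 alone thus holds among the NPC arrays but, beside ESCs, not for the 63 genes in which NP39 was not above every ESC array.

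In the first pattern, 45 genes were above ESCs on every NPC array and highest on NP39, and 43 of them had names. Their median difference from ESCs was 1.03 for NP106 and NP107 and 3.12 for NP39. The next held 12 genes for which NP106 and NP107 were neither both above nor both below every ESC array. On NP39 these genes were above every ESC array. The 4 with names were *Gria3*, *Pou3f4*, *Hoxd9* and *Emcn*. A further 38 genes were below ESCs on NP106 and NP107 but above them on NP39, and only *Nap1l5* and *Areg* of these had names.

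The last and largest pattern held the 57 genes that were below ESCs on every NPC array, less so on NP39. Their median ESC level was 8.91, their median difference from ESCs was -3.71 on NP106 and NP107 and -1.42 on NP39, and none had a name. The median gene with a name stood at the 31.4th percentile of all genes in ESCs, and the median gene without one at the 78.4th. Names were available mostly for genes higher in NPCs, with 1949 of the 2004 named genes called so. Nothing is therefore read from this contrast, and the part of naming in it was not tested.

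**Figure D4:**
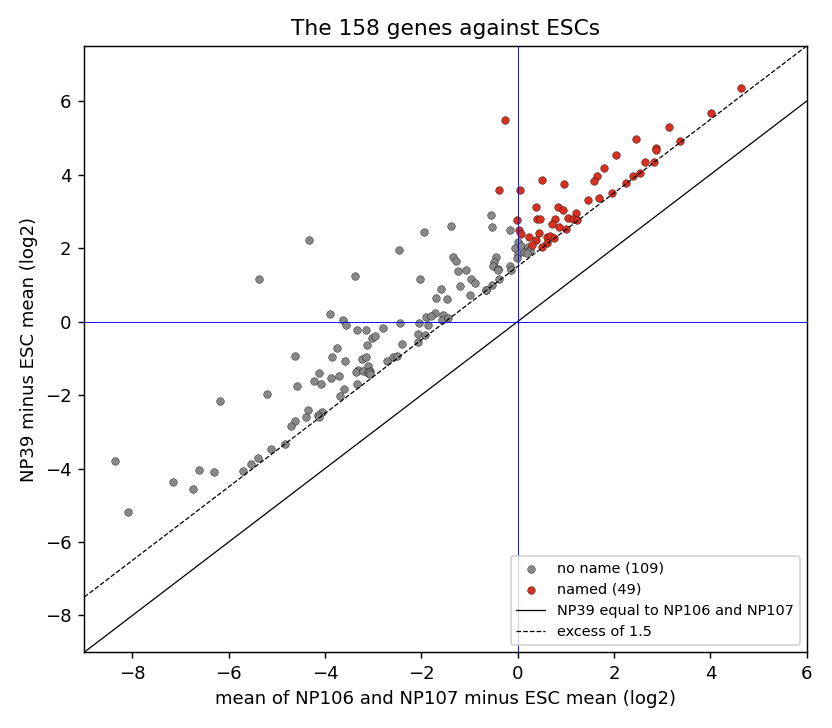
NP39 minus the ESC mean (log2, vertical axis) against the mean of NP106 and NP107 minus the ESC mean (log2, horizontal axis) for the 158 genes, red for the 49 with a name and gray for the 109 without. The dashed line is the selection limit of 1.5 above equality (solid line); the red points lie above 0 on the vertical axis and the gray points reach down to -5.19 on it.

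The 2 largest excesses of all belonged to genes known here only by their Ensembl identifiers. ENSMUSG00000033585 read 7.60 to 7.72 in ESCs, 3.17 and 3.51 on NP106 and NP107 and 9.88 on NP39. ENSMUSG00000033436 read 8.66, 8.63 and 8.54 in ESCs, 3.32 and 3.13 on NP106 and NP107 and 9.77 on NP39. Both were low on NP106 and NP107, and NP39 was above the ESC arrays, with excesses of 6.55 and 6.54. Their identity was not analysed here.

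When all NPC arrays were compared with the ESC arrays by limma (adjusted p under 0.05 and over 1.5-fold), 27 of the 158 genes were called higher (17.1%) and 56 lower (35.4%). Over all genes the shares were 15.4% and 18.7%. The 27 all had names and the 56 all lacked them, but names came mostly from genes higher in NPCs, so nothing is read from this split. The large excess of a gene widens its own error in this fit: *Nap1l5* differed by 1.65 ± 1.45 (SE, n = 3 arrays a cell type, limma adjusted p = 0.405), and *Chac1* by 1.62 ± 0.85 (limma adjusted p = 0.161). Genes with a larger difference on every NPC array were among the 27, such as *Gap43* at 4.57 ± 0.44 (limma adjusted p = 0.00012) and *Npas3* at 3.88 ± 0.40 (limma adjusted p = 0.00018).

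With NP39 left out, NP106 and NP107 differed from ESCs in 34 of the 158 genes upward (21.5%, against 16.7% of all genes) and in 88 downward (55.7%, against 19.4% of all genes). The selection favored genes with low values on these 2 arrays, so nothing is read from these shares. *Nap1l5* and *Areg* then stood at -0.26 ± 0.09 and -0.38 ± 0.11 (SE), below the fold required for a call. Low values on these arrays favored selection and may be background, so no fall is read from them. *Pou3f4* stood at -0.02 ± 0.11, *Hoxd9* at 0.02 ± 0.15 and *Gria3* at 0.06 ± 0.09. For these 5 genes the higher NPC mean rested on NP39. *Grm3*, *Sybu*, *Sema3a* and *Egr2* were higher without it by 2.45, 2.05, 1.80 and 1.58.

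At the limit of the selection, the named genes just inside were *Kcnc1*, *Ddr2* and *Dgkk*, with excesses of 1.503, 1.505 and 1.515. Just outside were *Ube2ql1* (1.48), *Rorb* (1.48) and *Ttyh1* (1.47). A single gene, without a name, was left out only because NP106 and NP107 lay 1.35 apart, with an excess of 2.58. Among the 158 genes those arrays differed by a median of 0.18 and at most 0.71, against a median of 0.11 over all genes.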

How the data were processed

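RNA of 3 ESC and 3 NPC arrays was hybridized to Affymetrix GeneChip mouse arrays. The authors read them with GeneChip Operating Software, summarised probes by an updated BrainCDF annotation and deposited RMA log2 values, which were used unchanged; RMA is also the tool in the submitters' processing notes. No source used here names the version or genome build of that annotation. Of 17208 rows, 64 control probe sets were left out. RMA removes differences in overall distribution, and a low value may be background.

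Rows carry Ensembl identifiers. A name was given where a row's 6 values equalled, within 0.0001, those beside a gene symbol in the study's supplementary expression sheets (1999 of 1999 rows of the main sheet, 2004 genes in all), which list mostly genes higher in NPCs. Their fold changes and p-values are the authors' own comparison and were not used. Chromosomes and promoters came from RefSeq (GRCm38.p6).

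The genes and lists were chosen with earlier results of these data known. Named genes with the 12 largest excesses and those in a list were given by array, other named genes by excess; 1 named gene is counted but not reported here. Functional groups and the genes of the ER chaperone and HOX lists with negative excess were named after their values were seen. NPCs and ESCs were compared over all 17144 genes with limma 3.58.1 in R 4.3.3, with Benjamini-Hochberg adjustment. On simulated data with independent noise on each array and 200 changed genes, limma recovered 86% and called 5 unchanged genes. Such noise holds no array that deviates over many genes together, as NP39 did, so these figures do not cover that case. Precision is limited by 3 arrays a cell type. Alternatives were other variance models (a moderated Welch test as in the study's methods among them), scalings, thresholds, filters, a replicate block and leaving out arrays.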

Additional observations from a re-analysis of the deposited data

How the results depend on the processing

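An excess limit of 1 took 377 genes and a limit of 2 took 78. Quantile normalization took 157 of the 158 and median centring all 158, and 138 remained when NP39 was set against the higher of NP106 and NP107. The genes called higher in NPCs numbered 3 with separate variances without moderation and 15 of those above the median gene, which removes low genes. The genes called lower numbered 6 with separate variances, and 45 to 88 when 1 array was left out, with 88 without NPC replicate 3 (NP39). Without that array the NPC minus ESC differences of *Nap1l5* and *Areg* were -0.26 and -0.38. That of *Pou3f4* was -0.023, smaller in size than its SE of 0.11. Over the arrays left out, the differences of these genes reached 2.65, 1.69 and 1.37. *Ddit3*, *Slc7a11*, *Wnt7a* and *Sfxn4* lost their NPC against ESC call when any 1 of the ESC arrays was left out. A 2-fold threshold called 1615 genes higher and 1977 lower over all genes. Above the median gene, 51 genes had NP39, and 21 had NP106 and NP107, above every ESC array. Median centring moved the median NPC minus ESC difference of all genes from -0.04 to 0.12, and the calls from 2638 higher and 3213 lower to 3302 and 2642 (for the 158 genes, from 27 and 56 to 35 and 52). Same-numbered arrays did not deviate together (correlations 0.026, 0.011 and -0.0064). The labels state no pairing by number, and these correlations cannot exclude one. With a replicate block 31 of the 158 genes were called higher and 55 lower. Causes were not tested.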
